A study of Arabidopsis thaliana with 63 samples.

Results

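The h2a.w-1 mutant was compared with wild-type (WT) Arabidopsis seedlings by RNA-seq, and all genes and transposable elements (TEs) of the deposited h2a.w-1 table were followed. The comparison used 6 of the 63 samples of the series, 3 libraries of each genotype, made from rRNA-depleted total RNA of untreated 10-day-old whole seedlings in the Col-0 background. The h2a.w-1 plants carry T-DNA insertions in HTA6, HTA7 and HTA12, the 3 genes that encode the histone variant H2A.W, with a single insertion allele per gene. The HTA6 insertion line also carries a rearrangement in which part of the right arm of chromosome 1 was moved to chromosome 5, and plants of this line can have a normal or a raised dosage of that part; the labels do not give the dosage of the plants sequenced here. A further triple mutant, h2a.w-2, also sampled in 3 libraries of seedlings of the same age, has the same HTA7 and HTA12 insertion alleles with a CRISPR-Cas9 frame-shift allele of HTA6, and its values are set beside those of h2a.w-1 where they add to the description.

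H2A.W is one of the histone H2A variants of plants and is deposited mainly in constitutive heterochromatin, the compact and DNA-methylated part of the genome in which most TEs lie. Pericentromeric TEs are kept silent by DNA methylation at CG, CHG and CHH sites, maintained by MET1, CMT3 and CMT2 with the remodeller DDM1, and short TEs in the arms are methylated through small RNAs. Loss of a heterochromatin component can be read out in RNA by TE transcripts, whereas changes in protein-coding genes (PCGs) of stress, growth and photosynthesis pathways record the state of the seedling.

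The table held 29961 features, of which 19761 had a mean normalized count of at least 10. Its columns are means over the libraries of a genotype, from which whole reads of each library were recovered for 99.85% of features. The 45 features not recovered were those with the highest counts (a mean of 10188 or more in at least 1 genotype), leaving 19716 features tested. The libraries are called A, B and C within each genotype in order of decreasing depth, and these letters are not the replicate numbers of the labels. Recovered reads ranged from 6556398 to 9732490 per WT library and from 7015669 to 9327783 per h2a.w-1 library. No pair of libraries was a duplicate, since the chi-square per degree of freedom between libraries of a genotype was 3.31 to 10.8. Nothing states that the libraries came from separate growth batches, so p-values measure the spread between these libraries, and fewer cells of a type cannot be told apart from less RNA per cell in whole seedlings.

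Fewer features rose than fell by more than 2-fold. With limma on log2(normalized count + 1), 332 features (1.68% of those tested) were higher and 662 (3.36%) lower in h2a.w-1 at a Benjamini-Hochberg adjusted p under 0.05 and an absolute log2 fold change (log2FC) above 1. These 2 conditions are called both thresholds here. With no condition on size, 2008 features (10.2%) were higher and 1696 (8.60%) lower, and the median log2 ratio of all features tested was -0.0093. Counts for lists and families below are to be read beside these shares of all features. The count of lower features was 439 without h2a.w-1 library A and 441 without WT library B. Gene lists below were matched by symbol and families by their name in the annotation, so that a family count covers the loci carrying that name and not necessarily every relative; the median given for a list is that of the log2 ratio of the genotype means, each with 1 added.

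The 3 H2A.W genes were the only members of the H2A families past both thresholds, and all were lower in every h2a.w-1 library than in any WT library. HTA6 (AT5G59870, chr5:24115354-24116220 in TAIR10.1) was at 821, 796 and 943 normalized counts in the WT libraries (in the order A, B, C) and at 57.6, 53.2 and 49.6 in the h2a.w-1 libraries. Its log2FC was -3.97 (SE 0.11, n = 3 per genotype), with an adjusted p of 7.1e-06 by limma. This made HTA6 the most strongly reduced protein-coding gene among features past both thresholds. The stress-induced ERF gene RRTF1 had a lower ratio of means with 1 added (log2 ratio -4.65). RRTF1 had 0 reads in all h2a.w-1 libraries and a mean of 24.1 in WT, at least 7.9-fold lower against a floor of 3 reads per library. HTA7 (AT5G27670, chr5:9792509-9793560) was at 688, 670 and 668 in WT and at 85.0, 82.8 and 96.8 in h2a.w-1, a log2FC of -2.93 (SE 0.10, limma adjusted p = 1e-05). HTA12 (AT5G02560, chr5:575225-577216), the least expressed of the 3, was at 83.9, 99.7 and 108 in WT and at 16.8, 18.7 and 22.4 in h2a.w-1, a log2FC of -2.27 (SE 0.20, limma adjusted p = 0.00073). HTA12 overlaps AT5G02570 on the opposite strand, and whether the counting used strand is not given in the sources used here, so reads of these 2 genes cannot be told apart with certainty.

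Transcript remained detectable from each of the 3 genes, and gene-level counts do not show on which side of an insertion these reads lie. In a fit of all 9 libraries HTA6, the gene whose allele differs between the mutants, was lower in h2a.w-1 than in h2a.w-2 (log2 difference -2.21, limma adjusted p = 6.5e-05). HTA7, with the same allele in both, differed by 0.02 (adjusted p = 0.94), and HTA12 by -1.06 (adjusted p = 0.14). Genes next to the insertions did not pass both thresholds except AT5G02580, the second gene after HTA12, which fell from a mean of 219.58 to 85.5 (log2 ratio -1.35, limma adjusted p = 0.0099). ADF3, an actin-depolymerizing factor gene beside HTA6, had a log2 ratio of -0.24 (adjusted p = 0.14), and DEG14 and RECQSIM, on either side of HTA7, had log2 ratios of -0.24 and 0.01.

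**Figure D1:**
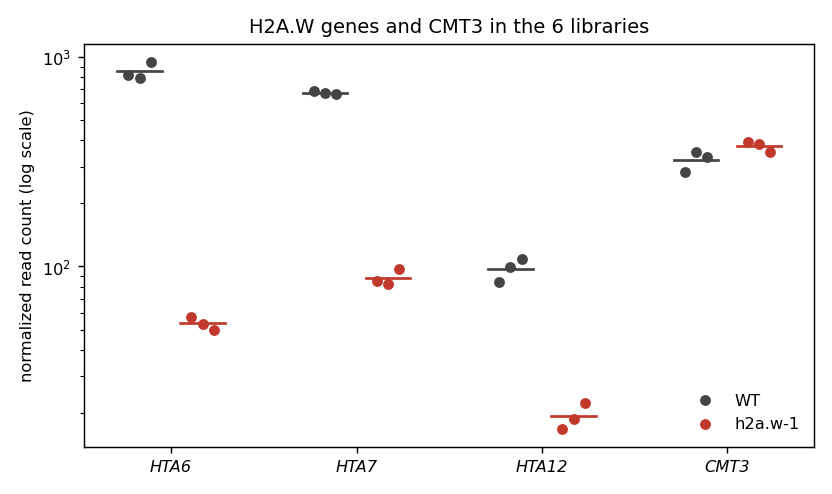
Normalized read counts (log scale) of the 3 H2A.W genes and CMT3 in each library, with WT in grey and h2a.w-1 in red; points are libraries A, B and C and bars are group means. HTA6, HTA7 and HTA12 lay far below WT in all 3 mutant libraries, whereas CMT3 was at 281 to 351 in WT and 352 to 393 in h2a.w-1.

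Among the other 9 H2A genes tested, none passed both thresholds by limma or by limma voom, although 3 were modestly higher at any size (6 at an unadjusted p under 0.05). Over all features 10.2% were higher at any size. The replication-linked HTA2 was at 404, 441 and 476 in WT and at 653, 598 and 523 in h2a.w-1 (log2FC 0.42, SE 0.11, limma adjusted p = 0.032). H2AXA, encoding the H2A.X variant of DNA repair, was at 957, 917 and 1004 in WT and at 1421, 1478 and 1161 in h2a.w-1 (log2FC 0.49, SE 0.11, limma adjusted p = 0.017). The mutant libraries lay above the WT libraries for both genes. RAT5, another H2A gene, had a log2FC of 0.51 (adjusted p = 0.016). The count of 3 was 0 without WT library B or h2a.w-1 library B, 1 without h2a.w-1 library A and 7 without h2a.w-1 library C. The largest change among histone genes outside H2A was that of HTB2, an H2B gene, at 273, 273 and 217 in WT and 511, 497 and 473 in h2a.w-1 (log2FC 0.96, SE 0.11, limma adjusted p = 0.0017). The stress-inducible linker histone gene HIS1-3 was at 663, 712 and 560 in WT and at 617, 665 and 1505 in h2a.w-1, where library C alone stood high (adjusted p = 0.39). HIS1-3 was the only member of the linker histone list tested. The other 3 symbols of that list, H1.1 and H1.2 among them, were not matched to a single locus, so their genes are not described.

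The DNA methylation machinery changed little. Of 12 tested DNA methyltransferase and demethylase genes, 0 passed the adjusted threshold at any size by limma or by limma voom, and 2 were higher at an unadjusted p under 0.05. MET1, the CG maintenance methyltransferase, was at 368, 397 and 354 in WT and at 491, 416 and 529 in h2a.w-1 (log2FC 0.35, SE 0.11, limma adjusted p = 0.058). Of 18 tested genes of RNA-directed DNA methylation, 4 were higher at any size and 0 lower, where 10.2% of all features were higher. The best separated was CHR38, a CLASSY remodeller that recruits RNA polymerase IV, at 155, 168 and 143 in WT and 274, 264 and 309 in h2a.w-1 (log2FC 0.86, SE 0.11, limma adjusted p = 0.0024). RDR2, the polymerase that makes these RNAs double-stranded, had a log2FC of 0.59 (adjusted p = 0.015) and NRPD1B, the largest subunit of RNA polymerase V, of 0.60 (adjusted p = 0.021). The count of 4 was 2 without WT library C or h2a.w-1 library C and 1 without h2a.w-1 library A. Of 8 heterochromatic histone methylation and silencing genes, 0 passed at any size by limma or limma voom, with 1 lower at an unadjusted p under 0.05. Among 15 DNA damage response genes 1 was lower at any size, SIM, an inhibitor of cyclin-dependent kinases (log2FC -0.63, SE 0.14, limma adjusted p = 0.018), a call lost without WT library C or h2a.w-1 library A or B.

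CMT3, the CHG methyltransferase gene that lies in the rearranged part of chromosome 1 (chr1:26248118-26253687), was at 281, 351 and 334 normalized counts in WT and at 393, 384 and 352 in h2a.w-1. Each mutant library was above every WT library, by 352 against 351 at the narrowest. The log2FC was 0.23 (SE 0.11), and the limma adjusted p was 0.18. By RT-qPCR, the study reported significantly more transcript of this gene in plants of the mutant that carried additional copies of it.

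Genes around CMT3 were at WT level on average in these libraries. The study reported abnormally high coverage of this part of the genome in published DNA and RNA sequencing data of the mutant. Whether the plants sequenced here carried additional copies was not tested. The region was taken as the interval between the first and the last of 9 TEs that the study listed from DNA coverage, a choice that used no RNA values. This interval is shorter than the rearranged part described by the study, so genes in the rest of that part are counted outside. The interval held 371 tested PCGs with a median log2 ratio of -0.0244, against -0.0100 for the PCGs outside it. The median was -0.0152, -0.0210 and -0.0381 in h2a.w-1 libraries A, B and C. For comparison, the median of WT libraries A, B and C against the other WT libraries was 0.0575, -0.0146 and -0.0609, so the mutant value lay within the spread of WT. At any size 45 of the 371 genes were higher and 38 lower, and past both thresholds 4 were higher and 16 lower. Of the 18742 PCGs tested outside the region 1936 were higher and 1636 lower at any size. The count of 83 genes inside at any size was 49 without WT library B, 43 without h2a.w-1 library A and 54 without h2a.w-1 library B. Of the 9 listed TEs 4 were in the table, with 0 to 5 reads in every library, which is too few to compare.

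**Figure D2:**
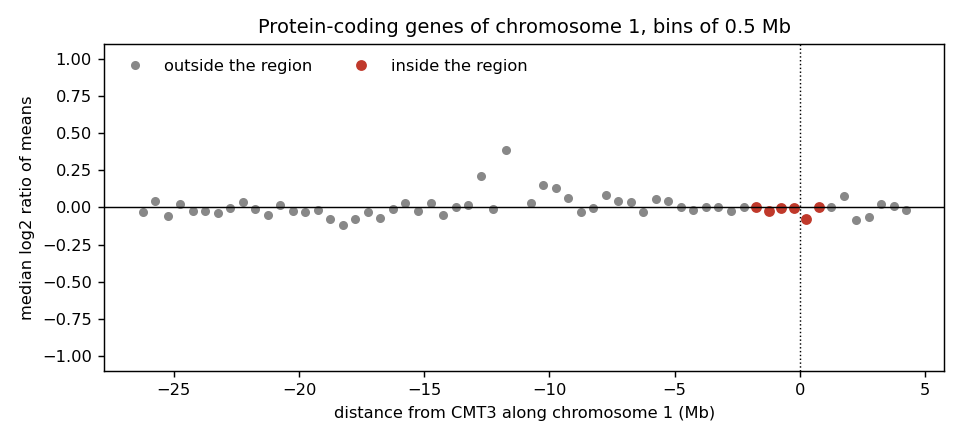
Median log2 ratio (h2a.w-1 over WT) of protein-coding genes in bins of 0.5 Mb along chromosome 1, plotted against distance from CMT3 in Mb. Bins that overlap the interval of the listed TEs, a part of the rearranged segment, are red and the dotted line marks CMT3. The red bins lay between -0.0749 and 0.0035.

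Single genes inside the region did move. SUFE2, whose product activates cysteine desulfurase for iron-sulfur cluster assembly, was at 417, 346 and 288 in WT and 90.4, 73.0 and 67.3 in h2a.w-1 (log2FC -2.17, SE 0.17, limma adjusted p = 0.00053). RAV2, a repressor of flowering related to TEM1, was at 4350, 4829 and 4012 in WT and 1392, 1468 and 761 in h2a.w-1 (log2FC -1.92, SE 0.23, limma adjusted p = 0.0019). Both genes were separated in all libraries. The neighbours AT1G69520 and AT1G69523, whose annotated ends overlap, went in opposite directions. AT1G69520 fell from 90.0, 61.8 and 67.8 to 28.4, 24.7 and 17.7, and AT1G69523 rose from 44.1, 52.1 and 44.0 to 157, 159 and 159 (log2FC -1.60 and 1.74). The other rises past both thresholds were AT1G70640, AT1G70820, the non-coding AT1G67105 and PMI2, a gene of chloroplast movement, with log2FC between 1.17 and 1.90. The call of AT1G70640 was lost without h2a.w-1 library A, and that of PMI2 by limma voom and on leaving out any library except WT library A. AT1G67105 is not a PCG and is not among the 4 higher genes counted above.

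The share of reads on TEs was similar in both genotypes. Reads that matched several places equally well were discarded, so transcripts of TEs with near-identical copies are largely not counted here. Reads on annotated TEs made up 1357, 1407 and 1232 per 1000000 recovered reads in WT and 1260, 1268 and 1437 in h2a.w-1. These are means of 1332 ± 90.3 and 1322 ± 99.7 (SD, n = 3; two-sided exact permutation p = 1). TE genes were taken here as the loci that RefSeq types as pseudogenes, so pseudogenes that are not of TE origin can be among them. Reads on this class made up 1382, 1589 and 1349 per 1000000 in WT and 1442, 1393 and 1759 in h2a.w-1, or 1440 ± 130 and 1532 ± 199 (exact permutation p = 0.5). The smallest p that 3 against 3 libraries can give is 0.1. Most TEs had too few reads to test: 93 of 3091 TEs and 95 of 1324 TE genes reached the minimum mean. Of these 188, 5 were higher and 8 lower past both thresholds.

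The TEs and TE genes that were called moved singly. SADHU3-2, a non-coding retrotransposon, was at 1.73, 11.5 and 2.51 in WT and 24.8, 43.4 and 33.1 in h2a.w-1 (log2FC 2.78, SE 0.59, limma adjusted p = 0.015), and it was no longer past the threshold without h2a.w-1 library B. AT1G25430 rose from 0, 3.53 and 2.51 to 35.4, 23.7 and 21.2 (log2FC 3.43, SE 0.64, limma adjusted p = 0.009). AT3TE51150 rose from 46.7, 33.5 and 31.4 to 86.8, 179 and 103, and was higher still in h2a.w-2 (h2a.w-1 minus h2a.w-2, log2 difference -1.14, limma adjusted p = 0.012). Among the falls AT5TE49855 went from 73.5, 45.9 and 35.2 to 0.89, 0.99 and 8.26 (log2FC -3.94, SE 0.65, limma adjusted p = 0.0056). AT5TE49855 was not changed in h2a.w-2, where its log2 difference from WT was 0.05. AT1TE54100 and AT2TE50950 fell by 1.96 and 1.41 on the log2 scale, and kept their calls without any 1 library.

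The largest rises were of genes that were almost silent in WT, so that their log2FC depends on the added pseudocount of 1 and is no bound on the fold. AT3G01345 was at 0.87, 1.77 and 0 in WT and 694, 604 and 809 in h2a.w-1 (log2FC 8.66, SE 0.36, limma adjusted p = 3.7e-05). It was much lower in h2a.w-2 (h2a.w-1 minus h2a.w-2, log2 difference 7.37, limma adjusted p = 4.3e-05). MRD1, named for its response in a methionine-overaccumulating mutant, was at 1.73, 0.88 and 1.26 in WT and 410, 391 and 428 in h2a.w-1 (log2FC 7.50, SE 0.23, limma adjusted p = 7.1e-06). MRD1 was at the same level in the other mutant, with a log2 difference of -0.14 between mutants (adjusted p = 0.59). The WT libraries had 1 or 2 reads of MRD1 each, and the mutant libraries were close to each other.

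A pair of genes had no read in any WT library. The non-coding AT2G01422 was at 19.5, 31.6 and 51.9 in h2a.w-1, at least 11.4-fold higher against a floor of 3 reads per library, and AT2G01422 was higher again in h2a.w-2 (h2a.w-1 minus h2a.w-2, log2 difference -4.41, limma adjusted p = 7.6e-05). The protein-coding AT2G30766 was at 21.3, 51.3 and 136 in h2a.w-1, at least 23.1-fold higher on the same floor, and higher than in h2a.w-2 by 5.20 on the log2 scale (adjusted p = 0.0021). AT1G31690, which had some WT expression, rose from 21.6, 6.18 and 8.79 to 311, 311 and 335 (log2FC 4.78, SE 0.38, limma adjusted p = 0.00055). The mutant libraries agreed closely for AT1G31690 and not for the pair before it, in which library A was lowest and library C highest.

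Some genes known from seeds were higher in libraries B and C than in library A of h2a.w-1, and their calls were not stable. CRA1, a cruciferin storage globulin, was at 1.73, 1.77 and 0 in WT and 16.8, 183 and 281 in h2a.w-1 (log2FC 5.64, SE 0.98, limma adjusted p = 0.0069). BGLU19, a beta-glucosidase, followed the same order with 23.0, 177 and 223 against 1.26 to 1.77 in WT (log2FC 5.26, SE 0.77, limma adjusted p = 0.0038). PER1, a peroxiredoxin of seeds, was at 5.32, 36.5 and 73.2 in h2a.w-1 and DELTA-VPE, a seed coat protease, at 5.32, 38.5 and 87.3, with 0 to 2.51 for either gene in WT. The calls of PER1 and DELTA-VPE were lost without h2a.w-1 library B or C, and that of DELTA-VPE also without WT library A or B. CRA1, BGLU19, PER1 and DELTA-VPE were all short of the threshold by limma voom. Of 12 loci on the seed storage list only CRA1 and CRB had a mean of at least 10, and CRB matched AT1G09340, a chloroplast RNA-binding protein gene and not a storage gene. Below the minimum, the oleosin gene OLEO2 was at 4.43, 16.8 and 37.8 in h2a.w-1 with 0 reads in all WT libraries. OLEO1 was at 0.89, 8.87 and 8.26 in h2a.w-1, also with 0 reads in WT. CRU3, a cruciferin gene, was at 0, 0.88 and 0 in WT and 0.89, 20.7 and 22.4 in h2a.w-1. The storage albumin genes SESA1, SESA2, SESA3 and SESA5 had 0 to 2 reads in every library. SESA4 had 2, 2 and 3 reads in WT and 0, 1 and 0 in h2a.w-1, CRU2 had 0 or 1 read in every library, and OLEO4 was at a mean of 7.74 in WT and 8.30 in h2a.w-1. The part of this seed signal in other rises was not tested.

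Low-oxygen response genes were lower together. These genes are induced when oxygen runs short by group VII ERF transcription factors, which are degraded in air after oxidation by plant cysteine oxidases, and they switch the cell to ethanolic fermentation and sucrose breakdown. Of 34 listed loci, chosen after the values were seen, 31 were tested, 22 were lower past both thresholds and 0 were higher (26 lower and 0 higher at an unadjusted p under 0.05; 19 lower and 0 higher past both thresholds by limma voom). Their median log2 ratio was -1.96, beside -0.0103 for all PCGs, and 3.36% of all features were lower past both thresholds. Since the list was chosen on these values, its count carries no test and describes these libraries only. Leaving out a library gave 17 to 22 lower genes.

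LBD41, a transcription factor gene of the core response, had the most even values, at 881, 850 and 865 in WT and 114, 139 and 125 in h2a.w-1 (log2FC -2.77, SE 0.10, limma adjusted p = 1.1e-05). ADH1, alcohol dehydrogenase of ethanolic fermentation, was at 979, 304 and 784 in WT and 144, 152 and 138 in h2a.w-1 (log2FC -2.08, SE 0.37, limma adjusted p = 0.0078). WT library B was lower than the other WT libraries for ADH1, and no mutant library reached it. The same held for AT4G33070, encoding pyruvate decarboxylase PDC1, the enzyme before ADH1, at 554, 121 and 505 in WT and 48.7, 91.7 and 37.8 in h2a.w-1 (log2FC -2.53, SE 0.57, limma adjusted p = 0.019). SUS4, a sucrose synthase, was at 633, 183 and 582 in WT and 85.0, 130 and 137 in h2a.w-1 (log2FC -1.82, SE 0.44, limma adjusted p = 0.025). The call of AT4G33070 was lost without WT library C or h2a.w-1 library A or C or by limma voom, and that of SUS4 without WT library A or C or h2a.w-1 library A or B.

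Oxygen sensing and signalling genes of the list fell too. AT5G15120 and AT5G39890 encode the plant cysteine oxidases PCO1 and PCO2. AT5G15120 was at 121, 58.2 and 71.6 in WT and 23.0, 21.7 and 17.7 in h2a.w-1, and AT5G39890 at 171, 80.3 and 134 in WT and 19.5, 26.6 and 34.2 in h2a.w-1 (log2FC -1.90 and -2.19). AT3G10040, encoding the response attenuator HRA1, was at 60.6, 54.7 and 86.7 in WT and 7.09, 11.8 and 21.2 in h2a.w-1 (log2FC -2.34, SE 0.39, limma adjusted p = 0.0056). ERF73, itself a group VII ERF gene, fell less, from 91.7, 56.5 and 81.6 to 34.6, 30.6 and 37.8 (log2FC -1.11, SE 0.22, limma adjusted p = 0.012), and was not past both thresholds without WT library A. HB1, the class I haemoglobin, fell from 499, 249 and 539 to 108, 178 and 53.1 (log2FC -1.998), and its call was lost without WT library C or h2a.w-1 library A.

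The lowest ratios of the list belonged to FTM1, AT4G10270 and AT1G33055. FTM1, a stearoyl-ACP desaturase gene also known as SAD6, was at 768, 244 and 728 in WT and 22.1, 102 and 49.6 in h2a.w-1 (log2FC -3.39, SE 0.59, limma adjusted p = 0.0068). AT4G10270 was at 154, 97.9 and 172 in WT and 6.201, 26.6 and 13.0 in h2a.w-1 (log2FC -3.30), and AT1G33055 at 214, 204 and 235 in WT and 19.5, 27.6 and 23.61 in h2a.w-1 (log2FC -3.16). All 3 were separated in every library. The members that did not pass included further genes of fermentation and sucrose breakdown. PDC2 was at 1900, 1598 and 1841 in WT and 1604, 1506 and 1344 in h2a.w-1 (adjusted p = 0.12), SUS1 had a log2FC of -0.35 (adjusted p = 0.31), and the lactate dehydrogenase gene AT4G17260 of -0.16 (adjusted p = 0.40).

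**Figure D3:**
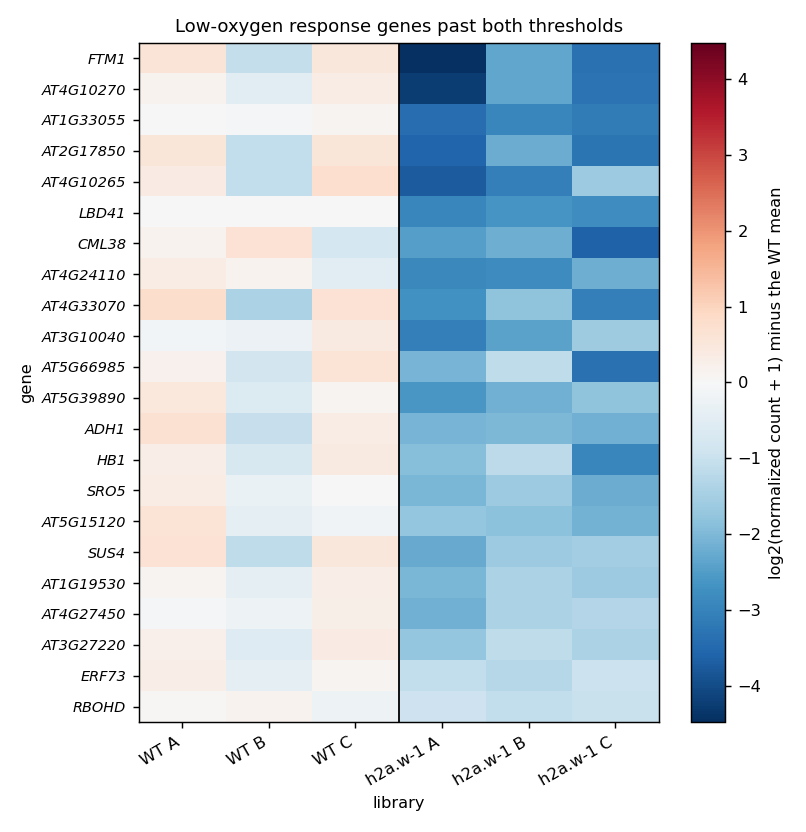
The 22 low-oxygen response genes past both thresholds, ordered by log2FC, with colour for log2(normalized count + 1) minus the WT mean in each of the 6 libraries. WT library B is paler than WT libraries A and C for genes such as ADH1, AT4G33070 and SUS4, and the h2a.w-1 libraries are below WT throughout, as in LBD41 at 114 to 139 against 850 to 881.

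The promoters of these genes were searched because the members fell together. The hypoxia-responsive promoter element (HRPE), through which group VII ERFs act, was looked for on both strands in the 500 bases before each RefSeq gene start. The pattern searched for left some positions of the element free to be any base, so a match need not be the element itself. The pattern was in 4 of the 34 listed loci and in 3 of the 31 tested, all 3 among the 22 that fell. Of all 19113 tested PCGs 325 (1.7%) held it. Because the list was chosen after its values were seen, the comparison of these shares carries no test. A match is a description of the letters only. The matches before ADH1 and AT4G10270 are shown with their flanks from TAIR10.1, on the strand of the gene. Capitals mark the match to the pattern, free positions included.
ADH1, chr1:28975064-28975124, plus strand: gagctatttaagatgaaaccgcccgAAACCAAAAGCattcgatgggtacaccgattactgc
AT4G10270, chr4:6374479-6374539, plus strand: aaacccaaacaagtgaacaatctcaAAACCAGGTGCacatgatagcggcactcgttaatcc
AT4G10270, chr4:6374609-6374669, plus strand: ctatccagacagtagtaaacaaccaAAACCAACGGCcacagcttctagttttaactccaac

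Compared with h2a.w-2, 18 of the 31 low-oxygen genes were lower in h2a.w-1 at an adjusted p under 0.05 in the 9-library fit and 0 were higher, where 10.0% of all features were lower and 9.35% higher in that contrast. LBD41 had a log2 difference of -2.01 (limma adjusted p = 6.5e-05) and AT1G33055 of -3.00 (limma adjusted p = 0.00013). The list was chosen with the h2a.w-1 values known, which favours this direction, so the counts are a description and nothing is read from them. The median difference of the list from WT was -0.29 in h2a.w-2.

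Genes that respond to touch, wounding and calcium were lower as well. Of 12 tested touch, calmodulin-like and zinc finger genes, 7 fell past both thresholds (12 lower at an unadjusted p under 0.05) and 0 rose by limma or limma voom, with a median log2 ratio of -1.38. Of all features 3.36% fell past both thresholds. TCH3, a calmodulin-like protein first found as touch-induced, was at 3204, 4896 and 3334 in WT and 940, 841 and 388 in h2a.w-1 (log2FC -2.47, SE 0.32, limma adjusted p = 0.0024). CML38, a calmodulin-like protein that is also on the low-oxygen list, was at 332, 467 and 173 in WT and 53.2, 65.1 and 23.61 in h2a.w-1 (log2FC -2.76, SE 0.44, limma adjusted p = 0.0049). TCH4, a touch-induced xyloglucan endotransglucosylase, fell from 856, 1301 and 889 to 320, 277 and 571 (log2FC -1.43, SE 0.27, limma adjusted p = 0.0099). TCH3, CML38 and TCH4 did not overlap between genotypes. Without WT library C 11 of the 12 passed both thresholds.

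Defence lists had few calls past both thresholds, with 1 of 19 salicylic acid genes and 2 of 12 camalexin and indole genes lower and 0 higher in either by limma or limma voom (1 higher in each and 8 and 4 lower at an unadjusted p under 0.05). Of 112 NLR disease resistance genes 18 were higher and 9 lower at any size, where 10.2% of all features were higher and 8.60% lower. Leaving out a library gave 6 to 15 higher NLR genes. WRKY33, a regulator of camalexin synthesis and of resistance to necrotrophs, was at 715, 1112 and 1008 in WT and 340, 363 and 197 in h2a.w-1 (log2FC -1.68, SE 0.25, limma adjusted p = 0.0039). MYB51, which activates indole glucosinolate genes, was at 751, 1071 and 764 in WT and 214, 204 and 171 in h2a.w-1 (log2FC -2.11, SE 0.16, limma adjusted p = 0.00052). CYP81F2, an indole glucosinolate hydroxylase, fell from 199.8, 312 and 169.6 to 30.1, 36.5 and 31.9 (log2FC -2.71, SE 0.23, limma adjusted p = 0.00067). Of 57 WRKY genes 6 were lower and 0 higher past both thresholds (21 lower and 2 higher at an unadjusted p under 0.05). Past both thresholds 3.36% of all features were lower. WRKY18, a salicylic acid-responsive member, fell from 963, 579 and 329 to 86.8, 73.0 and 169.9 (log2FC -2.46, SE 0.42, limma adjusted p = 0.0061). The salicylic acid marker PR1 could not be compared, with 81.3, 0 and 3.77 in WT and 0, 1.97 and 17.7 in h2a.w-1.

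Some genes of the ethylene-jasmonate branch were lower, while a single jasmonate-responsive gene rose. ORA59, an ERF that integrates both hormones, was at 374, 326 and 232 in WT and 91.2, 66.1 and 34.2 in h2a.w-1 (log2FC -2.34, SE 0.34, limma adjusted p = 0.0035). Its known targets PDF1.2b, a defensin, and HCHIB, a basic chitinase, had log2FC of -2.75 and -1.05 (adjusted p = 0.035 and 0.022). The call of PDF1.2b was lost without any of the WT libraries or h2a.w-1 library A, and that of HCHIB without WT library A or C or h2a.w-1 library C. Of 8 genes on this list 3 fell, and 1 did without WT library A or C. The log2 ratios of the 8 ran from -2.49 to 1.53, with 7 below 0 and 1 above. In h2a.w-2 the median difference of the list from WT was -0.70. VSP2, a vegetative storage protein induced by jasmonate, rose from 96.0, 67.1 and 82.9 to 1063, 866 and 571 (log2FC 3.30, SE 0.23, limma adjusted p = 0.00045). VSP2 was the only 1 of 24 jasmonate genes past both thresholds upward. TIFY7, a JAZ repressor, was the only one downward, a call lost without WT library B.

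Receptor kinase genes were called about as often as all features, and cysteine-rich receptor-like kinase and xyloglucan endotransglucosylase genes were lower more often. Of 200 receptor kinase genes 27 were higher and 19 lower at any size, of 39 receptor-like protein genes 5 were higher and 2 lower, and of 21 expansin genes 4 were higher and 5 lower. Over all features 10.2% were higher and 8.60% lower at any size, and 1.68% higher and 3.36% lower past both thresholds. Of 32 cysteine-rich receptor-like kinase genes 7 were lower and 0 higher past both thresholds (4 lower without WT library B). CRK12 was at 54.5, 81.2 and 69.1 in WT and 1.77, 4.93 and 14.2 in h2a.w-1 (log2FC -3.44, SE 0.57, limma adjusted p = 0.0056), and CRK29 fell from 561, 532 and 420 to 189, 168 and 174 (log2FC -1.50). Of 27 xyloglucan endotransglucosylase genes, whose products loosen and rejoin wall polymers, 7 were lower and 0 higher past both thresholds. XTH24 fell from 3594, 2350 and 1266 to 411, 387 and 897 (log2FC -2.07, SE 0.42, limma adjusted p = 0.012), a call lost without h2a.w-1 library A, and XTH19 from 1201, 883 and 1011 to 353, 534 and 308 (log2FC -1.40). Among 61 SAUR genes, auxin-responsive growth genes, 4 were higher and 11 lower (6 lower without WT library B or h2a.w-1 library A or C), and among 26 Aux/IAA genes 0 passed both thresholds while 7 were lower and 2 higher at any size.

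Cytochrome P450 genes went both ways, and peroxidase, NAC, glutathione S-transferase and UDP-glycosyltransferase genes past both thresholds were mostly lower. Of 160 cytochrome P450 genes 10 were higher and 17 lower past both thresholds, with 11 lower without WT library B and 9 without WT library C. Past both thresholds 1.68% of all features were higher and 3.36% lower. CYP71B12 rose from 17.3, 15.9 and 8.79 to 120, 135 and 158 (log2FC 3.25, SE 0.27, limma adjusted p = 0.00066), and its relative CYP71B22 fell from 619, 678 and 579 to 135, 109 and 34.2 (log2FC -2.95, SE 0.44, limma adjusted p = 0.0038). Close copies such as these share sequence, and reads that matched several places equally well were discarded. Of 50 tested peroxidase genes 1 rose and 8 fell past both thresholds, and the count of falls was 2 without WT library B, WT library C or h2a.w-1 library A, 3 without h2a.w-1 library C and 13 without h2a.w-1 library B. PRX52 was the gene that rose, from 8.65, 4.41 and 3.77 to 109.8, 76.9 and 22.4 (log2FC 3.22), a call lost by limma voom. Of 69 NAC genes 6 fell and 0 rose past both thresholds (24 lower and 1 higher at an unadjusted p under 0.05), among them ATAF2, from 2435, 1968 and 1851 to 631, 744 and 673 (log2FC -1.60). Glutathione S-transferases had 5 of 37 genes lower and UDP-glycosyltransferases 8 of 52 lower and 1 higher. Leaving out a library gave 1 to 5 lower glutathione S-transferase genes (1 without WT library B or h2a.w-1 library C) and 3 to 8 lower UDP-glycosyltransferase genes (3 without h2a.w-1 library C).

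Phosphate starvation genes were lower on average, but their libraries differed within genotypes. Of 19 tested genes 8 fell past both thresholds and 0 rose by limma or limma voom (15 lower and 0 higher at an unadjusted p under 0.05), with a median log2 ratio of -1.18. Of all features 3.36% fell past both thresholds. MGDC, which makes galactolipids that replace phospholipids, was at 3731, 859 and 1052 in WT and 48.7, 81.8 and 751 in h2a.w-1 (log2FC -3.36, SE 0.97, limma adjusted p = 0.046), a call that held only when h2a.w-1 library C was the one left out. IPS1, a non-coding RNA that traps a phosphate-regulated microRNA, showed the same order with 1787, 561 and 906 in WT and 59.4, 105 and 721 in h2a.w-1 (adjusted p = 0.071). WT library A and h2a.w-1 library C stood high within their genotypes for both genes. The count of lower genes was 12 without h2a.w-1 library C, 1 without h2a.w-1 library A, 3 without h2a.w-1 library B and 4 or 5 without a WT library. The sequence GNATATNC, bound by the phosphate regulator PHR1 and palindromic so that both strands match together, was in the 500 bases before 7 of the 19 genes and in 10.7% of all tested PCGs.

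Nitrate genes shifted less. Of 14 tested, 1 fell past both thresholds and 7 were lower at any size, against 1 higher. At any size 8.60% of all features were lower and 10.2% higher. The count of 7 was 4 without WT library B or h2a.w-1 library B, and 3 without h2a.w-1 library A. The gene past both thresholds was GSR 1, a cytosolic glutamine synthetase, at 3155, 3018 and 4312 in WT and 1532, 1805 and 1630 in h2a.w-1 (log2FC -1.06, SE 0.14, limma adjusted p = 0.0028), a call lost without WT library C. NIA1, a nitrate reductase, had a log2FC of -0.98 (adjusted p = 0.021). The chloroplast isoform GS2 was higher by 0.52 on the log2 scale (adjusted p = 0.018).

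Root marker genes did not pass both thresholds (0 of 8 tested; 1 higher and 2 lower at an unadjusted p under 0.05), and their summed level was 2005, 2488 and 2653 in WT and 1395, 1992 and 1860 in h2a.w-1. Root hair genes had 2 of 21 lower and a median log2 ratio of -0.97, with 7 lower without WT library A and 0 without WT library B or C or h2a.w-1 library A or C. RSL4, a root hair growth regulator, was at 36.3, 67.9 and 127 in WT and 23.9, 45.4 and 30.7 in h2a.w-1 (adjusted p = 0.13). The summed level of 7 leaf markers with recovered reads ranged from 12850 to 16230 in WT and from 23550 to 24430 in h2a.w-1. Of 10 flower and pollen markers ANX2 was at 0 in all libraries, and their sum was 91.8 to 159 in WT and 37.8 to 101 in h2a.w-1. The part of tissue make-up in the changes of stress, nutrient and photosynthesis genes was not tested.

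Nuclear photosynthesis genes were higher as a group, by small steps. Of 32 tested light harvesting and photosystem genes 26 were higher at any size and 0 lower, with the same counts by limma voom, where 10.2% of all features were higher. At an unadjusted p under 0.05, 28 were higher and 1 lower. The tested members that were not higher include PSAT and AT2G17630, phosphoserine aminotransferase genes, and PSAT1, a sterol acyltransferase gene, which matched by symbol only and belong to no photosystem. A further 20 members were too highly expressed for reads to be recovered, and the median log2 ratio over all 52 was 0.62. Leaving out a library gave 17 to 26 higher genes, the fewest without h2a.w-1 library A.

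PSBO2, of the oxygen-evolving complex, was at 3605, 2868 and 2952 in WT and 6324, 6374 and 6286 in h2a.w-1 (log2FC 1.02, SE 0.11, limma adjusted p = 0.0013). Lhca6, an antenna protein that links photosystem I to the NDH complex, was at 424, 411 and 308 in WT and 865, 905 and 903 in h2a.w-1 (log2FC 1.24, SE 0.13, limma adjusted p = 0.0011). LHCB2.3 and PSBP-2 also passed both thresholds, with log2FC of 1.04 and 1.06. These 2 genes and PSBO2, all near a log2FC of 1, were not past both thresholds without WT library B or C, which left Lhca6 alone. LHCB2.3 and PSBP-2 also lost the call without h2a.w-1 library A, and PSBP-2 without h2a.w-1 library B or with a pseudocount of 5. NPQ4, the sensor of energy-dependent quenching, had a log2FC of 0.92 (adjusted p = 0.0032). Among genes with only group means, CA1, a carbonic anhydrase, had the largest ratio, with the authors' means of 4392 in WT and 10563 in h2a.w-1 (log2 ratio 1.27). GUN5, the magnesium chelatase subunit of chlorophyll synthesis, was at 7078 and 14391, and LHCB3 at 8921 and 15108. CAB1, the most abundant antenna gene, was at 41740 and 51469 (log2 ratio 0.30).

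Most other differences of organelle and growth genes were under 2-fold. Of 247 pentatricopeptide repeat genes, RNA-binding proteins of plastids and mitochondria, 33 were higher and 0 lower at any size (61 higher and 2 lower at an unadjusted p under 0.05), and 1, DYW1, an editing factor, passed both thresholds. The share that 33 makes of 247 is close to the 10.2% of all features that were higher, and the count was 19 without WT library C and 16 without h2a.w-1 library A. DYW1 was at 58.8, 60.9 and 41.5 in WT and 114, 105 and 120 in h2a.w-1 (log2FC 1.08, SE 0.18, limma adjusted p = 0.0061), a call lost without WT library C. Of 30 cell cycle genes 8 were higher at any size and 0 lower (14 higher and 0 lower at an unadjusted p under 0.05; 9 higher by limma voom). MCM2, of the replicative helicase, was at 304, 332 and 299 in WT and 427, 456 and 486 in h2a.w-1 (log2FC 0.55, SE 0.09, limma adjusted p = 0.0058). CYCA3;1 and CYCD3;1, cyclins of S phase and of cell cycle entry, had log2FC of 0.86 and 0.73 (adjusted p = 0.024 and 0.028). The count of 8 was 1 without h2a.w-1 library A, 2 without h2a.w-1 library B and 4 or 5 without a WT library. Cytosolic ribosomal protein genes did not pass at any size (0 of 14, with 3 lower at an unadjusted p under 0.05).

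Aliphatic glucosinolate genes, of the methionine-derived branch of these defence compounds, all had a ratio above 0. Of 18 tested 11 were higher at any size and 0 lower by limma and by limma voom, with a median log2 ratio of 0.71. At any size 10.2% of all features were higher. AOP2, which forms alkenyl side chains, was at 56.2, 49.4 and 57.8 in WT and 390, 274 and 169 in h2a.w-1 (log2FC 2.25, SE 0.27, limma adjusted p = 0.0019). MYB29, a regulator of the branch, was at 76.1, 57.4 and 64.1 in WT and 218, 183 and 122 in h2a.w-1 (log2FC 1.36, SE 0.22, limma adjusted p = 0.0056). In AOP2 and MYB29 h2a.w-1 library C was nearest to WT without overlapping it. MYB76, another regulator, also passed (log2FC 2.18), a call lost without WT library A or B or h2a.w-1 library A or B. MYB28, the main regulator, had a log2FC of 0.54 (adjusted p = 0.009). The count of 11 was 6 without WT library B or h2a.w-1 library A or B, 7 without WT library A and 17 without h2a.w-1 library C.

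Cold-regulated genes rose in part. Of 15 tested 3 were higher past both thresholds and 7 at any size, and 0 lower by limma and limma voom (7 higher and 1 lower at an unadjusted p under 0.05). Over all features 1.68% were higher past both thresholds and 10.2% at any size. COR15A, a chloroplast protein that protects membranes in freezing, was at 151, 105 and 82.9 in WT and 725, 645 and 1060 in h2a.w-1 (log2FC 2.84, SE 0.25, limma adjusted p = 0.00073). COR15B, its tandem neighbour, was at 582, 560 and 394 in WT and 1746, 1731 and 1714 in h2a.w-1 (log2FC 1.78, SE 0.14, limma adjusted p = 0.0006). DREB1A, also called CBF3, a transcription factor that activates COR genes, was at 20.8, 7.06 and 15.1 in WT and 104.5, 108 and 87.3 in h2a.w-1 (log2FC 2.83, SE 0.35, limma adjusted p = 0.0021). The 3 genes were separated in every library. CBF1 and CBF2, the other factors of this cluster, had log2FC of 0.69 and -0.47 (adjusted p = 0.48 and 0.63), and COR47, a dehydrin, of -0.33 (adjusted p = 0.056).

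DREB1A and its relatives bind the sequence CCGAC, which was in the 500 bases before 8 of the 15 genes, on either strand, and in 22.9% of all tested PCGs. The matches before COR15A and COR15B are given from TAIR10.1 on the strand of the gene, the 2 genes past both thresholds that held one. The capitals mark CCGAC or its reverse complement GTCGG.
COR15A, chr2:17712377-17712437, minus strand: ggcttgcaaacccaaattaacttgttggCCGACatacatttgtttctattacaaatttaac
COR15A, chr2:17712440-17712500, minus strand: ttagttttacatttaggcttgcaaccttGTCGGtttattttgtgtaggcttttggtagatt
COR15B, chr2:17710666-17710726, minus strand: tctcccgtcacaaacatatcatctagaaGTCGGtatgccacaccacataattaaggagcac

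In h2a.w-2 COR15A had a log2 difference from WT of -2.39, and the mutants differed by 5.23 (limma adjusted p = 8.2e-05). COR15B differed between the mutants by 2.98 (adjusted p = 0.00029). Of the 15 cold-regulated genes 8 were higher in h2a.w-1 than in h2a.w-2 at an adjusted p under 0.05 and 0 lower. Of the 32 photosynthesis genes 26 were higher than in h2a.w-2 and 0 lower, and of 30 cell cycle genes 13 were higher and 0 lower. Over all features 9.35% were higher and 10.0% lower in this contrast. The median difference of h2a.w-2 from WT was -0.28 for cold-regulated, -0.20 for photosynthesis and -0.33 for cell cycle genes. These counts therefore include a lower level in h2a.w-2 and are not a measure of the rise in h2a.w-1 alone.

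**Figure D4:**
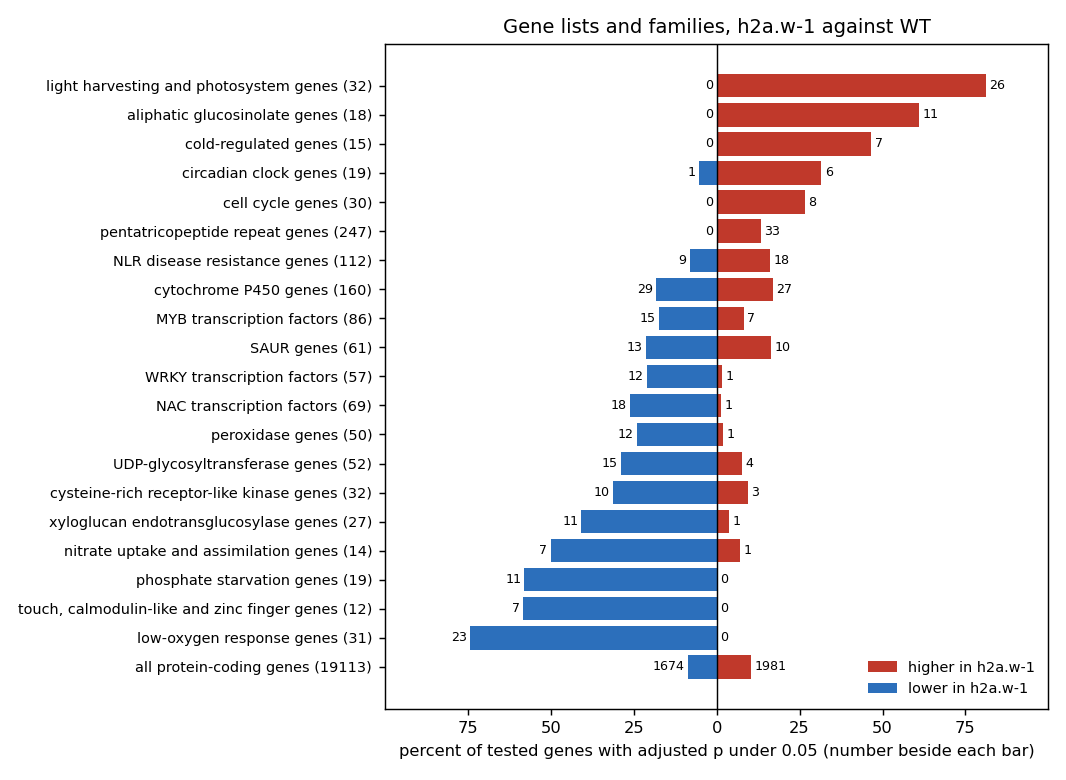
Percent of tested genes of each list or family with an adjusted p under 0.05 at any size, higher (red, to the right) or lower (blue, to the left) in h2a.w-1, with the number tested in brackets and the number called beside each bar. Photosynthesis genes (26 of 32 higher) and low-oxygen genes (23 of 31 lower) are the first and the last of the 20 lists drawn, which were picked from all lists tested, and all protein-coding genes are the last bar; the low-oxygen list was chosen after the values were seen.

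Hormone and flowering genes changed singly, while clock genes were higher at any size more often than all features. PYL6, an abscisic acid receptor gene, was at 304.5, 213.5 and 224 in WT and 16.8, 16.8 and 37.8 in h2a.w-1 (log2FC -3.41, SE 0.32, limma adjusted p = 0.00085). HAI2, a phosphatase of the same hormone's pathway, rose from 17.3, 7.94 and 7.54 to 52.3, 43.4 and 122 (log2FC 2.57, SE 0.46, limma adjusted p = 0.0075). GH3.3, which conjugates auxin, fell from 288, 368 and 274 to 123, 93.7 and 82.6 (log2FC -1.63, SE 0.18, limma adjusted p = 0.0013). Of 19 clock genes 1, ELF4 of the evening complex, passed both thresholds, at 56.2, 70.6 and 46.5 in WT and 119, 118 and 169.9 in h2a.w-1 (log2FC 1.217, SE 0.21, limma adjusted p = 0.0067). At any size 6 were higher and 1 lower, where 10.2% of all features were higher and 8.60% lower. Leaving out a library gave 4 to 6 higher clock genes. LHY and CCA1, the morning clock factors, had log2FC of -0.36 and 0.36 (adjusted p = 0.58 and 0.67). TEM1, a repressor of FT and relative of RAV2, was at 3073, 3145 and 2622 in WT and 1363, 1318 and 805 in h2a.w-1 (log2FC -1.38, SE 0.20, limma adjusted p = 0.0033), and SNZ, an AP2-type floral repressor, rose from 34.6, 42.4 and 30.1 to 104, 109 and 157 (log2FC 1.75).

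Heat and iron genes gave short lists of calls. HSFA7A, a heat stress factor, fell from 119, 138 and 131 to 14.2, 32.5 and 27.1 (log2FC -2.42, SE 0.29, limma adjusted p = 0.0019), and HSFB2A from 245, 237 and 212 to 105, 111 and 100.3 (log2FC -1.12). These were the 2 of 12 heat shock genes past both thresholds. Of 17 iron genes 1 was higher and 2 lower past both thresholds, and 4 were higher and 4 lower at any size. OPT3, an oligopeptide transporter of phloem iron, was at 354.64, 423.51 and 337.85 in WT and 665.24, 761.1 and 1266.4 in h2a.w-1 (log2FC 1.2177, limma adjusted p = 0.0084). FER1, a ferritin that stores iron, fell from 5306.6, 5182.7 and 6510.8 to 2876.2, 2167 and 2832.6 (log2FC -1.11, limma adjusted p = 0.0023), a call lost without h2a.w-1 library B. The libraries of OPT3 and FER1 did not overlap. NAS3, a nicotianamine synthase for metal transport, had a log2FC of -1.33 (limma adjusted p = 0.049), a call lost when any library except h2a.w-1 library C was left out. Among features of no list, AT3G15356, which went from 659, 905 and 722 to 124, 84.8 and 43.7, and the non-coding AT3G06325, from 223, 281 and 275 to 19.5, 18.7 and 35.4, were among the 12 largest falls (log2FC -3.27 and -3.40).

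A block of neighbouring genes on chromosome 3 was lower together. From AT3G57980 to AT3G58470, 27 genes were tested, of which 21 were lower at any size (8.60% of all features were) and 0 higher, by limma, and 9 were lower past both thresholds. The segment was picked from values of h2a.w-2 in an earlier look at these data, so its low median of -0.89 is not independent of the WT libraries that both comparisons share. In h2a.w-2 the median difference from WT was -0.95. BZIP61, a transcription factor gene, was at 870.2, 850 and 864 in WT and 301, 331 and 348 in h2a.w-1 (log2FC -1.40, SE 0.09, limma adjusted p = 0.00029). LBD29, an auxin-induced factor of lateral roots, was at 18.16, 25.6 and 27.6 in WT and 3.54, 6.90 and 3.54 in h2a.w-1 (log2FC -2.16), and AT3G58020 fell from 285, 288 and 303 to 136, 134 and 115 (log2FC -1.19). The libraries of each genotype were tightly grouped for BZIP61 and AT3G58020.

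Levels changed at the edges of the block within few genes. The gene before it, AT3G57950, had a log2 ratio of -0.18 (adjusted p = 0.72). After AT3G58470 (log2 ratio -0.99) came SPP1 and PP2A-4, at -1.08 and -1.08, followed by AT3G58510 at 0.20. In h2a.w-2 AT3G57950, SPP1, PP2A-4 and AT3G58510 differed from WT by -0.62, -0.21, -0.70 and 0.52. Of 924 bins of 100 kb with at least 10 genes, the lowest median was -0.86, in this block, the next -0.45 and the highest 0.54. Whether WT was high or the mutants low here cannot be told apart, because the same WT libraries served both comparisons.

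**Figure D5:**
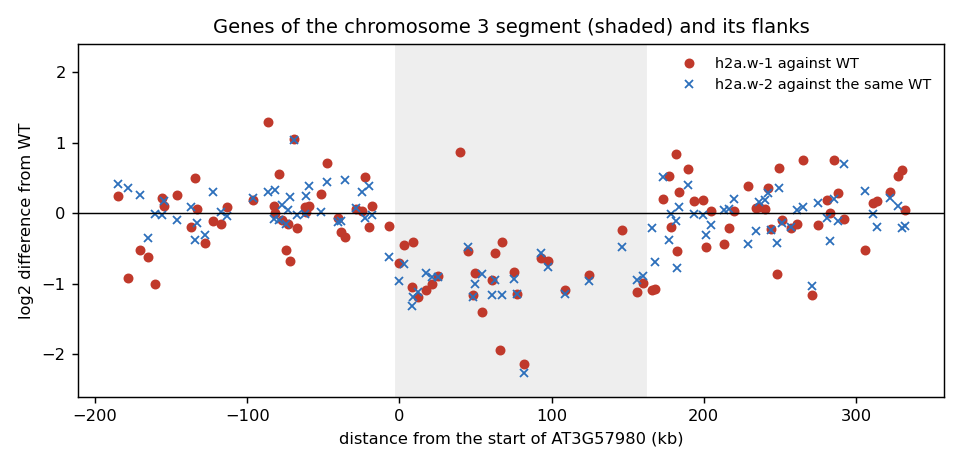
Log2 difference from WT of each tested gene against distance in kb from the start of AT3G57980, for h2a.w-1 (red points, log2 ratio of means) and h2a.w-2 (blue crosses, fitted difference), with the segment shaded. Genes inside lie near -1 in both mutants, the median being -0.89 in h2a.w-1 and -0.95 in h2a.w-2, and the flanks lie around 0.

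The 9-library fit gave the difference between the mutants for the features described here. Over all features 1237 of 19676 (6.29%) differed between h2a.w-1 and h2a.w-2 at an adjusted p under 0.05 and an absolute log2 difference above 1. Of 160 features named by rule or list that passed both thresholds against WT, 155 entered this fit and 107 differed between the mutants at an adjusted p under 0.05, 105 of them in the direction of their change against WT. These features were picked for their size in h2a.w-1, which favours that direction, so the count is a description. MRD1 and HTA7 were among those with no difference found between the mutants, and AT3G01345, VSP2 (log2 difference 4.05, limma adjusted p = 4.3e-05) and PYL6 (log2 difference -3.81, limma adjusted p = 0.00011) among those that differed most.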

How the data were processed

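RNA-seq libraries of 10-day-old seedlings were used, 3 for WT and 3 for each triple mutant. Per the labels and methods, the authors trimmed reads with Trim Galore 0.5.0, aligned them to TAIR10 with STAR 2.7.0c, discarded reads with several equally good positions and PCR duplicates, and counted genes and TEs of Araport11 with HTSeq; whether strand was used is not given in the sources used here. The deposited signal is the mean over the libraries of a genotype of counts divided by the authors' size factors, set separately in each table. Further columns hold the authors' fold changes and p-values and were not used. Recovered reads give the depth; intervals from it cover counting error only.

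Because a deposited mean combines whole read numbers through 3 fixed scale factors, the reads of each library could be solved for. They were checked against the WT means of both tables, which gave the same WT reads for all 29938 features recovered in both. Normalized counts are recovered reads over size factor. limma 3.58.1 (lmFit, eBayes with trend) in R 4.3.3 was run on log2(normalized count + 1) of features with a mean of at least 10, with Benjamini-Hochberg adjustment over all of them; the script was tested on simulated data. A count model was not run, because the deposited columns are means; limma voom on the recovered reads was an alternative. The 9-library fit used median-ratio size factors over all 9. Gene names came from RefSeq (TAIR10.1), in which all 26870 gene IDs matched.

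Members, lists and the regions were chosen with earlier results of these data known. Named features were HTA6, HTA7, HTA12 and CMT3; the 12 largest rises and falls past both thresholds outside the chromosome 1 region and the 8 and 4 largest inside it; called TEs up to 12; and up to 4 members per list with the largest ratio. Those of the low-oxygen list, and a few genes given with a fold change and adjusted p only, were chosen after their values were seen. Further alternatives were a pseudocount of 5, no filter, a minimum of 50, total-read scaling, size factors without chromosome 1 and each library left out. Sequences of the other promoter matches are not reported here.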

Additional observations from a re-analysis of the deposited data

Results flagged for a closer look

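The mutants differed from each other in many features. In the 9-library fit 1237 features differed between h2a.w-1 and h2a.w-2 at a limma adjusted p under 0.05 and an absolute log2 difference above 1. Where this difference comes from was not tested. HTA6 was among them, with h2a.w-1 minus h2a.w-2 at -2.21 on the log2 scale; the mutants carry different alleles of this gene.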

How the results depend on the processing

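No paired analysis was possible because the deposited columns are means over the libraries of a genotype and carry no replicate numbers. Leaving out each library in turn gave 280 to 412 features higher and 439 to 707 lower past both thresholds, 1957 to 3335 at an adjusted p under 0.05, 43 to 74 such genes in the chromosome 1 region and a region median of -0.0422 to -0.0104. The count of 3704 features at an adjusted p under 0.05 was 2460 without WT library B, 2465 without WT library C and 1957 without h2a.w-1 library A. These fits have fewer samples. Without a filter on low values the region median was -0.0390. All other settings kept the counts of higher, lower and region genes within 1.5 times, the lowest being 233 higher and 495 lower with a minimum mean of 50. Of 161 named results (genes past both thresholds and CMT3) 0 reversed, 58 lost their call without at least 1 library, 17 under at least 1 other alternative, and 99 kept it throughout. Most TEs did not reach the minimum mean and could not be tested; low depth and absence of transcripts cannot be told apart for them.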
